A study of Mus musculus with 147 samples.

Results

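Differentiating germ cells of the mouse testis were examined at postnatal day 10 (PND10). A cell was taken as a PND10 germ cell when its name gave wild type and PND10, it held more than 2000 genes and 10000 to 1000000 UMIs, its Ddx4 level was at least 150 CPM, and its Sox9 and Nr2f2 levels were both under 100 CPM. CPM is the number of UMIs of a gene per 1000000 UMIs of the cell or pool. Ddx4 encodes a germ cell RNA helicase, Sox9 marks Sertoli cells and Nr2f2 marks interstitial cells. The gate kept 327 cells, 173 of biological replicate R1 and 154 of R2. These were 89.1% of the 367 PND10 cells past the cell filter, out of 384 sequenced at that age and 13032 in the whole series. PND7 and PND12 cells gated alike numbered 307 (151 in R1, 156 in R2) and 236 (54 in R1, 182 in R2), and 336 PND8 and 696 PND14 cells are given beside them.

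The series followed male germ cells at 28 time-points by a modified STRT-seq, which counts molecules at the 3′ end of transcripts. All mice compared here were wild-type offspring of C57BL/6 females and males carrying the Blimp1-mVenus and Stella-ECFP transgenes (BVSC), and they differed in age at collection. After birth, cells that looked like germ cells were picked at random by mouth pipette. The labels of the libraries do not give the age, which was read from the cell names. The study's sample list gives a single testicular sample for each replicate of these ages, so that libraries of a pool are not separate samples.

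Many male germ cells at this age are spermatogonia that have left the stem and progenitor states. Retinoic acid made in the testis induces Stra8 and Kit, Kit-positive spermatogonia divide mitotically several times, and Stra8 with its partner MEIOSIN later starts the meiotic programme. Cohesins, axis proteins and the DNA break machinery are then loaded, and the first spermatocytes appear. In a mouse testis of this age the first wave of germ cells moves through these steps nearly together.

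The label was checked on markers that the gate had not used. Dazl, Mael, Dnd1 and Tex101, all germ cell genes, stood at 761 and 689, 479.8 and 442, 132.02 and 120.6, and 374 and 512 CPM in the R1 and R2 pools. The 15 PND10 cells that failed both limits, here called somatic cells, held 135.9, 94.8, 15.97 and 75.4 CPM of the same genes. Stra8, a retinoic acid target needed for meiotic entry, stood at 498 and 538 CPM and at 108.4 CPM in the somatic cells. Kit, the receptor of stem cell factor, stood at 104.4 and 102.3 CPM against 15.6 CPM in the somatic cells. Esx1, Ascl2 and Dmrtb1, transcription factors of differentiating spermatogonia, stood at 112.8 and 136.7, 106.97 and 112.8 and 110.1 and 80.7 CPM against 31.3, 6.46 and 11.2 CPM. Every germ cell and differentiation marker named here was therefore higher in both germ cell pools than in the somatic cells.

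Few cells lay near the Ddx4 limit, 6 of them within 15 CPM. The lowest members held 151 and 151 CPM and the highest cells left out by Ddx4 alone held 144.1 and 143.4 CPM, with a median of 359.6 and a highest value of 1032 CPM among the members. Ddx4 alone removed 5 cells, Sox9 or Nr2f2 alone removed 20 and both removed 15. The highest member values were 95.8 CPM for Sox9 and 99.8 CPM for Nr2f2, and the lowest value that led to exclusion by these genes alone was 102.1 CPM. These genes chose the cells and were not tested.

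Depth and other RNA differed among the pools in ways that touch the results. The 6 pools of PND7, PND10 and PND12 held 16152572 to 70389121 UMIs, with 49105011 and 56999740 at PND10, and 276376 and 337678 UMIs in the median PND10 cell. The R1 pool of PND12 was 1 library of 54 cells. The 2 PND12 pools stood apart from each other, with a median difference between R1 and R2 of 0.81 on the log2 scale over genes, against 0.32 at PND10 and 0.23 at PND7. Cells with at least 100 CPM of 4 Sertoli genes together (Clu, Defb19, Cldn11, Amhr2) made up 78.8% and 56.4% of the PND7, 61.3% and 84.4% of the PND10 and 100% and 34.1% of the PND12 pools. Cells with at least 100 CPM of Piwil1 and Ldhc, genes of later germ cells, made up 0% and 0.641% of the PND7, 23.1% and 61.9% of the PND8, 3.47% and 11.04% of the PND10 and 9.26% and 76.9% of the PND12 pools. The Sertoli shares at PND8 were 16.9% and 13.1%, and neither share followed the order of age. Libraries used the same set of cell barcodes (94 of the 95 barcodes of PND10 members recurred in another library), and no 2 members had identical counts. Cell names of all PND7 libraries carry the ploidy field 2N, where those of PND8, PND10 and PND12 carry none, and the methods of the study describe a Hoechst stain to separate cells by ploidy. At PND14 the R1 libraries carry 2N or 4N and the R2 libraries 2N or none, so PND14 values are not of age alone. PND7 libraries also have another range of names. Age, this field and the library set cannot be told apart between PND7 and PND10, and PND8 values are therefore given for many of the genes that passed. Libraries of 1 pool differed too, and their values are given for some of the genes only. In R2 of PND12 the first of the 3 libraries stood apart. The 3 held 15.8, 148.25 and 319 CPM of Dmrtb1 and 20.2, 132.15 and 273 CPM of Prss50. In R2 of PND7 the 2 libraries differed, as in Egr4 with 126.9 and 56.9 CPM.

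UMIs were summed over the cells of each pool, and the 6 pools were tested in 1 edgeR quasi-likelihood fit over 19575 genes. No gene passed an adjusted p of 0.05 in any of the 3 comparisons, which is 0% of genes for PND10 against PND7, 0% for PND12 against PND10 and 0% for PND10 against the mean of both. The smallest adjusted p was 0.574, 0.349 and 0.729. At an unadjusted p under 0.05 the 3 comparisons held 1441, 2654 and 1288 genes, and DESeq2 called 445, 1281 and 261 genes. All values below therefore describe pools, and a gene is said to have passed a test only with the test named.

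A second fit, with fewer pools, gave calls for PND10 against PND7. With the PND7 and PND10 pools alone, 641 genes were higher at PND10 and 820 lower, 3.45% and 4.41% of 18602 genes. A fit without 1 PND12 pool takes its spread from the PND7 and PND10 pools alone, so it is no separate check of the fit of 4 pools. A fit without 1 PND7 or PND10 pool leaves a single pool at that age. Counts of these fits are not read here. Cells low in Sertoli RNA are those with the 4 Sertoli genes together under 100 CPM. This limit left out 78.8% and 56.4% of the PND7 cells and 61.3% and 84.4% of the PND10 cells (R1 and R2). Whether a gene failed to pass there through fewer cells or through less Sertoli RNA was not tested. Among the cells left, the fit of 4 pools called 22 higher and 9 lower of 15467 genes. Of the 79 genes named for PND10 against PND7, 8 passed in that fit, namely Ccne2, Dmrtb1, Esx1, Gm21917, Pcsk1n, Prss50 and Tbx1 as higher and Hbb-y as lower. Hbb-y, a globin gene, was low and came from 1 library of each PND7 replicate. Its PND7 libraries held 0 and 8.66 CPM in R1 and 0.298 and 8.37 CPM in R2, and no PND10 library held more than 0.225 CPM. With PND8 in the place of PND7 the fit of 4 pools called 1 gene, the Sertoli gene Defb19, higher at PND10. Adjusted p-values printed for single genes below come from the fit of PND7 and PND10 alone unless another test is named, and are those of an alternative to the designed fit. Log2 differences printed with an error (± SE) come from the designed fit of 6 pools, with 2 pools per time-point. Counts of groups that do not overlap are read against 30.4% of all genes with both PND10 pools above both PND7 pools and 24.4% with both below.

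**Figure D1:**
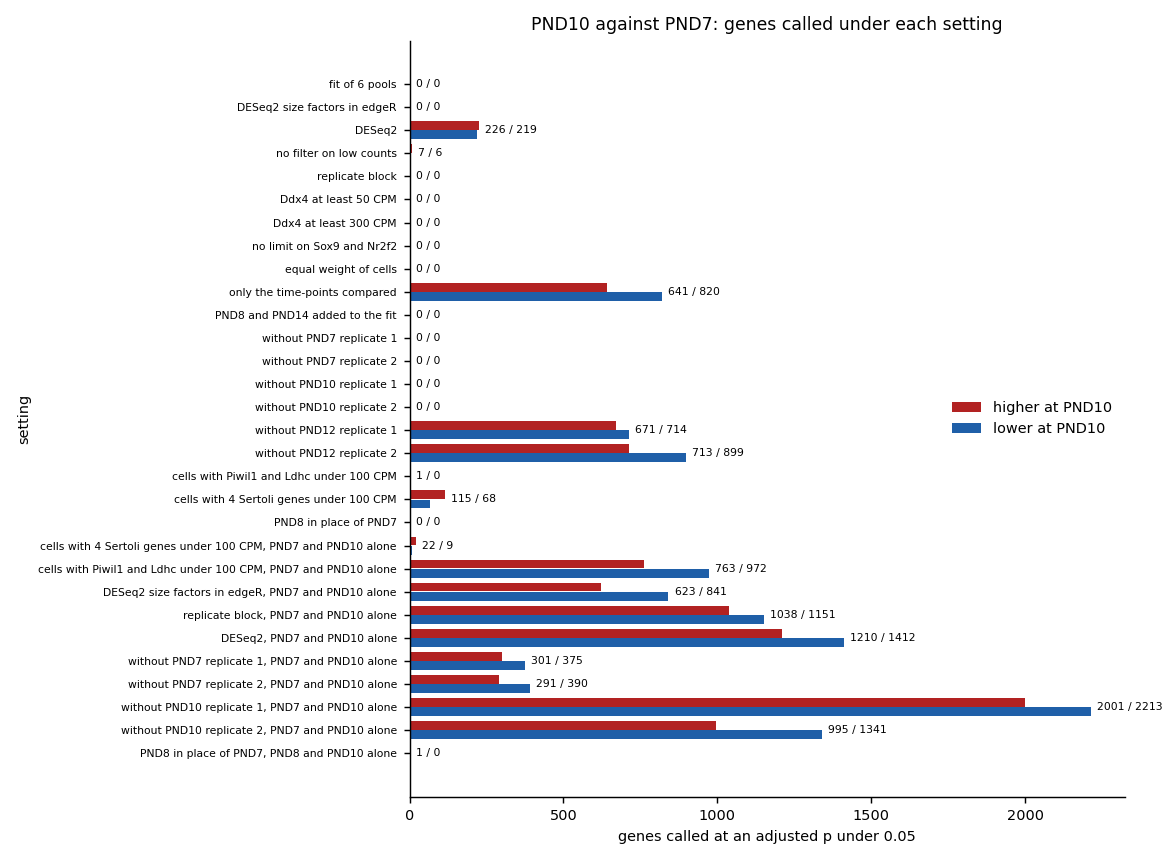
Bars show, for each way of fitting PND10 against PND7, how many genes had an adjusted p under 0.05 (red, higher at PND10; blue, lower), with both counts printed beside them. The designed fit of 6 pools gave 0 and 0, the fit of PND7 and PND10 alone gave 641 and 820, and the fit of PND8 and PND10 alone gave 1 and 0. Bars of fits that left out 1 pool rest on a single pool at that age.

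Differentiation genes were mostly higher at PND10 than at PND7. Of 14 genes of differentiating spermatogonia, 9 had both PND10 pools above both PND7 pools and 4 had both below, with a median log2 fold change of 0.27 against 0.03 over all genes. In the fit of PND7 and PND10 alone 5 passed as higher (Kit, Dmrtb1, Esx1, Ascl2, Rhox13) and 1 as lower (Ccnd2). DESeq2 on 6 pools called 2 of the 14 higher and none lower. Summed over the list, the level was 2135 and 2241 CPM at PND7, 2699 and 2629 CPM at PND10 and 2251 and 1633 CPM at PND12.

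Pools of PND10 held 112.8 and 136.7 CPM of Esx1, against 30.6 and 18.2 CPM at PND7 and 118.9 and 51.8 CPM at PND12. Esx1 is an X-linked homeobox gene (GENCODE M21 on mm10, chrX:137115397-137122083, minus strand) known from the placenta and the testis. Both PND10 pools lay far above both PND7 pools, and the PND12 pools were far apart. The log2 fold change of PND10 over PND7 was 2.32 ± 0.41 (SE, 6 pools), the adjusted p was 0.00262, and DESeq2 on 6 pools gave an adjusted p of 1.77e-05. At PND8 the level was already 79.7 and 64.7 CPM, and PND10 differed from PND8 by 0.78 on the log2 scale (adjusted p = 0.271, edgeR on 4 pools). In the cells low in Sertoli RNA the fold change was 2.50 on the log2 scale with an adjusted p of 0.0119.

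For Ascl2 the levels were 74.6 and 81.2 CPM at PND7, 106.97 and 112.8 CPM at PND10 and 53.1 and 44.7 CPM at PND12. Ascl2 is a basic helix-loop-helix factor of trophoblast and intestinal stem cells (GENCODE M21 on mm10, chr7:142966829-142969264, minus strand). The PND10 pools were above all PND7 and PND12 pools, but single libraries overlapped. The libraries held 101.97 and 111.1 CPM in R1 and 91.05 and 129.1 CPM in R2 of PND10, 65.99 and 96.97 CPM in R2 of PND7 and 92.5, 31.03 and 35.7 CPM in R2 of PND12. PND10 differed from PND7 by 0.46 ± 0.16 (adjusted p = 0.042, fit of 4 pools) and PND12 from PND10 by -1.14 ± 0.16 on the log2 scale. For the later step DESeq2 on 6 pools gave an adjusted p of 3.72e-08, where edgeR's designed fit called no gene. The PND8 pools held 72.1 and 104.6 CPM, both below the PND10 pools, and PND10 differed from PND8 by 0.31 on the log2 scale (adjusted p = 0.574).

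Kit was at 104.4 and 102.3 CPM at PND10, 63.3 and 67.1 CPM at PND7 and 55.1 and 58.6 CPM at PND12. As for Ascl2, the PND10 pools were above those of PND7 and PND12, but 1 library of PND7 reached the PND10 range and 1 of PND12 came close to it. Kit stood at 40.3 and 94.9 CPM in the R2 libraries of PND7 and 90.4, 47.9 and 54.5 CPM in those of PND12, against 98.5 and 109.3 CPM and 92.98 and 109.2 CPM in the R1 and R2 libraries of PND10. Its log2 fold changes were 0.63 ± 0.17 from PND7 (adjusted p = 0.0182, fit of 4 pools) and -0.82 ± 0.17 from PND10 to PND12 (DESeq2 adjusted p = 0.00345). The PND8 pools held 81.3 and 103.5 CPM, so that the R2 pool of PND8 lay between the PND10 pools. Among cells low in Sertoli RNA the difference from PND7 was 0.33 on the log2 scale and did not pass (adjusted p = 0.608).

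Stra8 stood at 348 and 416 CPM in the PND7 pools, 498 and 538 CPM at PND10 and 515 and 316 CPM at PND12. Stra8 (GENCODE M21 on mm10, chr6:34920163-34939344, plus strand) was higher in both PND10 pools than in both PND7 pools. The R2 libraries of PND7 held 279 and 557 CPM, the latter level with the highest of the 4 PND10 libraries (503 and 494 CPM in R1, 512 and 557 CPM in R2). The difference from PND7 was 0.40 ± 0.21 on the log2 scale and passed neither the fit of 4 pools (adjusted p = 0.0741) nor DESeq2 (adjusted p = 0.552). The PND8 pools, at 486 and 479 CPM, were lower than those of PND10 by 0.09 on the log2 scale, and of the PND12 pools R1 lay between the PND10 pools and R2 below them.

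Rhox13 reached 207 and 228 CPM at PND10, against 115.2 and 113.7 CPM at PND7 and 214 and 98.1 CPM at PND12. Rhox13 is an X-linked homeobox gene of spermatogonia and early spermatocytes, and its difference from PND7 was 0.89 ± 0.30 on the log2 scale (adjusted p = 0.00452). For Dmrtb1 the levels were 34.5 and 27.8 CPM at PND7, 110.1 and 80.7 CPM at PND10 and 37.3 and 183 CPM at PND12. Dmrtb1, a factor of the switch from mitosis to meiosis, differed by 1.59 ± 0.71 (adjusted p = 0.00564), with PND12 pools far apart. Ccnd2 was at 219 and 240.0 CPM at PND10, 282 and 313 CPM at PND7 and 268 and 157 CPM at PND12. Ccnd2, the cyclin D2 gene, was the member that passed as lower, by -0.41 ± 0.21 on the log2 scale (adjusted p = 0.042). At PND8 Rhox13 stood at 149 and 167 CPM, Dmrtb1 at 43.7 and 95.7 CPM, where R2 was above R2 of PND10, and Ccnd2 at 289 and 249.6 CPM. The log2 differences of PND10 from PND8 were 0.45, 0.46 and -0.24, with adjusted p of 0.323, 0.698 and 0.577. Among cells low in Sertoli RNA Dmrtb1 passed (adjusted p = 0.0385), while Ascl2, Rhox13 and Ccnd2 did not (adjusted p = 0.317, 0.0801 and 0.161). Their log2 differences there were 0.65, 1.00 and -0.51. Sohlh1, a factor of early differentiation, had lower PND10 than PND7 pools (291 and 265 against 314 and 321 CPM) without passing the test.

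**Figure D2:**
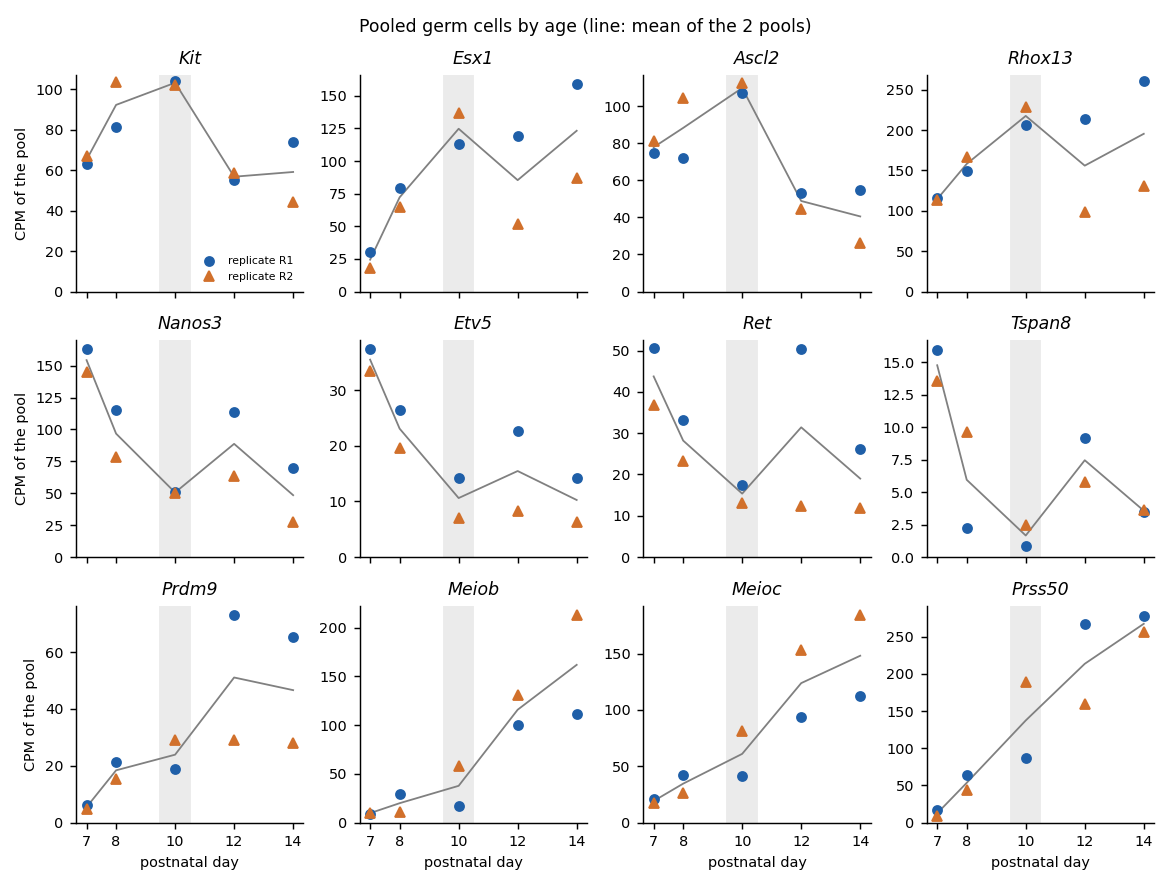
Each panel shows the CPM of 1 gene (vertical axis, from 0) in the pooled germ cells of PND7, PND8, PND10, PND12 and PND14 (horizontal axis, days), with circles for R1, triangles for R2, a line through the mean of the 2 pools and PND10 shaded. The means of Kit and Ascl2 are highest at PND10, Nanos3, Etv5, Ret and Tspan8 are lower at PND10 than at PND7, and the meiotic genes of the bottom row are higher at PND10 than at PND7.

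Retinoic acid genes showed a small set of differences. The list held 23 genes, those of retinoid transport, synthesis, breakdown and reception with Stra8 and Rec8 added. Of these, 11 had both PND10 pools above PND7 and 2 had both below, and the median log2 fold change was 0.36. In the fit of 4 pools Rxrb, Rbp4, Crabp2 and Aldh1a2 passed as higher and Rxrg and Aldh1a1 as lower, while DESeq2 on 6 pools called none of the list and edgeR on 6 pools gave 4 an unadjusted p under 0.05. Rbp4 stood at 78.8 and 80.5 CPM in the PND7 pools, 129.3 and 161 CPM at PND10 and 126.7 and 69.5 CPM at PND12. Rbp4 encodes a retinol carrier, and its difference was 0.83 ± 0.25 on the log2 scale (adjusted p = 0.00898). Pools of PND10 held 13.2 and 17.4 CPM of Crabp2, against 7.02 and 6.50 CPM at PND7 and 9.29 and 6.54 CPM at PND12. Crabp2, a carrier of retinoic acid to its receptors, differed by 1.14 ± 0.38 (adjusted p = 0.0347) and both PND10 pools were above all 4 others. For Crabp1 the levels were 373 and 372 CPM at PND7, 525 and 456 CPM at PND10 and 317 and 231 CPM at PND12. Crabp1, the related binding protein, differed by 0.36 ± 0.16 and did not pass (adjusted p = 0.0945), and at PND12 it was lower by a log2 difference of -0.82 ± 0.16 that DESeq2 called (adjusted p = 0.00322). Aldh1a1 and Aldh1a2, which make retinoic acid and are also expressed by testis somatic cells, differed from PND7 by -0.80 ± 0.70 and 0.66 ± 0.39 on the log2 scale, and both changed sign against PND8 (0.59 and -0.16). At PND8 Rbp4 stood at 104.3 and 129.6 CPM and Crabp2 at 7.69 and 9.43 CPM, and PND10 differed by 0.31 and 0.83 on the log2 scale (adjusted p = 0.509 and 0.426). None of the 6 genes passed among cells low in Sertoli RNA (adjusted p from 0.164 to 0.879), and all kept the sign they had in the fit of 4 pools.

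Stem cell genes were mostly lower at PND10 than at PND7. Of 16 genes of undifferentiated spermatogonia, 13 had both PND10 pools below both PND7 pools and 1 had both above, with a median log2 fold change of -1.46. In the fit of 4 pools 9 passed as lower (Ret, Id4, Etv5, Nanos2, Tspan8, Tcl1, Utf1, Egr2, Egr4) and none as higher, and DESeq2 on 6 pools called 3 as lower. Among cells low in Sertoli RNA, a much smaller set of cells, none of the 9 passed (adjusted p from 0.217 to 0.589, all with a log2 difference below 0). Their summed level was 518 and 392 CPM at PND7, 403 and 289 at PND8, 243 and 165 at PND10 and 329 and 258 at PND12. Fewer cells of a type and less RNA per cell cannot be told apart in pooled values.

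Gfra1 was at 5.15 and 1.32 CPM at PND10, 14.8 and 9.42 CPM at PND7 and 13.3 and 6.07 CPM at PND12. Gfra1 is the GDNF co-receptor of stem cells, and although its log2 difference from PND7 was -1.91 ± 0.77 it did not pass the fit of 4 pools (adjusted p = 0.0812). Ret stood at 50.6 and 36.9 CPM in the PND7 pools, 17.5 and 13.2 CPM at PND10 and 50.5 and 12.4 CPM at PND12. Ret, the receptor that signals with GFRA1, differed by -1.54 ± 0.61 (adjusted p = 0.00942). Etv5 reached 14.2 and 7.05 CPM at PND10, against 37.5 and 33.6 CPM at PND7 and 22.7 and 8.30 CPM at PND12. Etv5, a GDNF-responsive factor of self-renewal, differed by -1.76 ± 0.56 (adjusted p = 0.0173). In all 3 genes both PND10 pools lay below both PND7 pools, and 1 of the PND12 pools was near PND10.

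For Tspan8 the levels were 15.9 and 13.6 CPM at PND7, 0.855 and 2.46 CPM at PND10 and 9.16 and 5.74 CPM at PND12. Tspan8 encodes a surface protein used to enrich stem cells, and it had the largest difference of the list that passed, -3.21 ± 0.62 on the log2 scale (adjusted p = 0.00942, and 6.05e-05 by DESeq2 on 6 pools). Utf1 was at 34.1 and 30.9 CPM at PND10, 67.9 and 58.8 CPM at PND7 and 38.5 and 36.4 CPM at PND12. Utf1, a chromatin protein of undifferentiated spermatogonia, differed by -0.99 ± 0.21 (adjusted p = 0.00947). Tcl1 stood at 72.4 and 52.8 CPM in the PND7 pools, 24.6 and 14.4 CPM at PND10 and 39.7 and 18.7 CPM at PND12. Tcl1, an AKT co-activator, differed by -1.70 ± 0.45 (adjusted p = 0.0119), and it was the member among the 10 largest falls of that fit. Id4, at 33.5 and 25.3 CPM at PND7 and 10.04 and 8.68 CPM at PND10, differed by -1.68 ± 0.66 (adjusted p = 0.00739) and reached 18.4 and 74.7 CPM at PND12. Against PND8 the log2 differences of Tspan8, Utf1, Tcl1, Etv5 and Ret were -1.85, -0.98, -1.32, -1.12 and -0.88, and Id4, at 20.7 and 8.37 CPM at PND8, differed by -0.65 (adjusted p = 0.694). None of the first 5 passed (adjusted p from 0.202 to 0.477, edgeR on 4 pools).

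Of 12 progenitor genes 9 had both PND10 pools below PND7 and 2 had both above, with a median log2 fold change of -0.40, and Nanos3, Lin28a, Upp1 and Ddit4 passed the fit of 4 pools as lower. None of these 4 passed among cells low in Sertoli RNA (adjusted p from 0.085 to 0.44, all with a log2 difference below 0). Pools of PND10 held 50.7 and 50.4 CPM of Nanos3, against 163 and 145.4 CPM at PND7 and 113.9 and 63.6 CPM at PND12. Nanos3 (GENCODE M21 on mm10, chr8:84173731-84185217, minus strand), an RNA-binding repressor of progenitors, was lower by a log2 difference of -1.64 ± 0.25, with adjusted p = 0.00106 in the fit of 4 pools and 1.59e-06 by DESeq2 on 6. The PND10 pools were nearly equal and below all other pools of the 3 ages, and PND8 held 115.4 and 78.05 CPM. Single libraries overlapped, with 179.4, 44.2 and 23.96 CPM of Nanos3 in R2 of PND12. The PND10 libraries held 49.5 and 51.7 CPM in R1 and 63.1 and 40.96 CPM in R2. Lin28a, an inhibitor of let-7 maturation, was lower in both PND10 pools (37.3 and 37.3 CPM) than in both PND7 pools, by a log2 difference of -0.77 ± 0.39 (adjusted p = 0.0164). Upp1, a uridine phosphorylase gene, was at 158 and 135.4 CPM at PND7 and 87.9 and 72.2 CPM at PND10 (log2 difference -0.91 ± 0.24, adjusted p = 0.0104). Zbtb16 (PLZF) and Sall4, broad factors of undifferentiated cells, differed by -0.58 ± 0.27 and -0.20 ± 0.21 on the log2 scale and passed no fit given here.

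**Figure D3:**
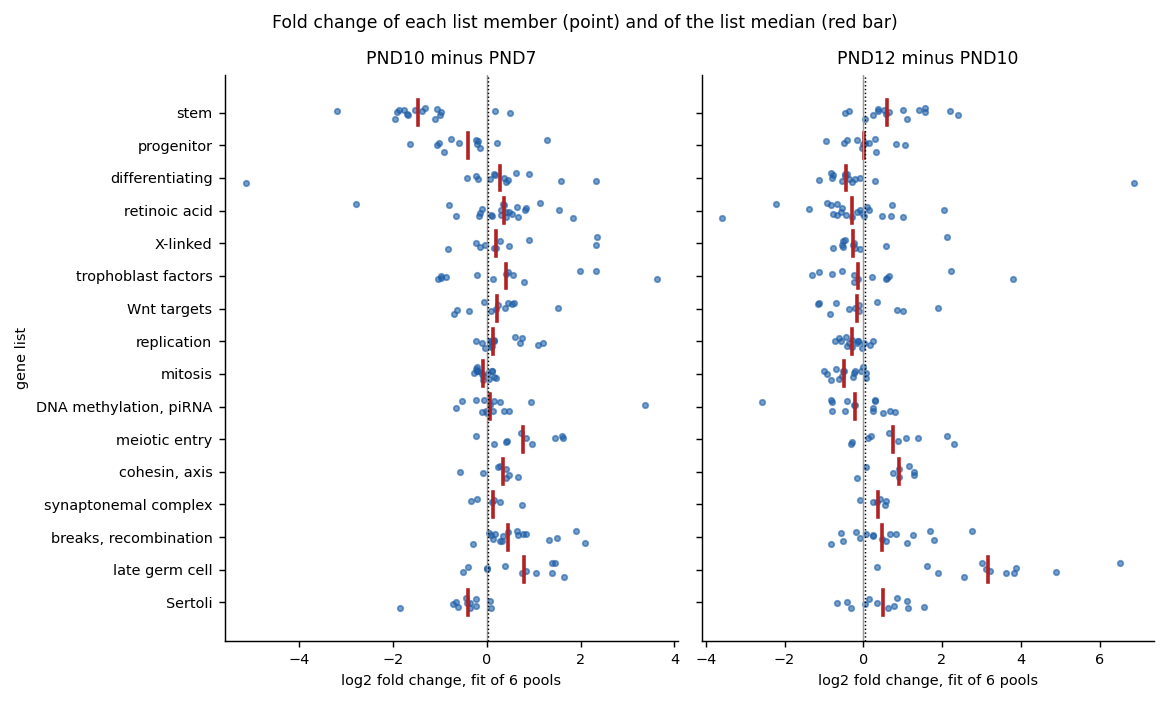
Points are the log2 fold changes of list members in the designed fit of 6 pools, PND10 minus PND7 on the left and PND12 minus PND10 on the right, with a red bar at the median of each list, a grey line at 0 and a dotted line at the median of all genes. The stem list sits at a median of -1.46 on the left, and the late germ cell list at 3.17 on the right.

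Genes of meiotic entry were mostly higher at PND10 than at PND7. Of 10 genes of the meiotic switch and of telomere attachment, 8 had both PND10 pools above PND7 and 1 had both below, with a median log2 fold change of 0.78. Meioc, Majin and Terb1 passed the fit of 4 pools, and DESeq2 on 6 pools also called 3 of the list. For Meioc the levels were 21.2 and 17.1 CPM at PND7, 41.03 and 80.9 CPM at PND10 and 94.04 and 153 CPM at PND12. Meioc (GENCODE M21 on mm10, chr11:102663716-102682237, plus strand), which works with the RNA helicase YTHDC2 to let germ cells leave the mitotic programme, differed by 1.63 ± 0.40 on the log2 scale (adjusted p = 0.014). Majin was at 12.6 and 24.4 CPM at PND10, 6.19 and 5.52 CPM at PND7 and 53.2 and 100.6 CPM at PND12. Majin, an anchor of telomeres at the nuclear envelope, differed by 1.61 ± 0.46 (adjusted p = 0.0242). Terb1 stood at 8.02 and 7.73 CPM in the PND7 pools, 17.4 and 27.3 CPM at PND10 and 48.2 and 63.8 CPM at PND12. Terb1, its telomere-binding partner, differed by 1.46 ± 0.33 (adjusted p = 0.0165). In all 3 genes the R2 pool of PND10 was above R1 and both PND12 pools were above both PND10 pools. The first library of R2 of PND12 did not share this, with 22.2 CPM of Meioc, 14.4 CPM of Majin and 13.6 CPM of Terb1.

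Of 17 genes of DNA break formation and recombination 12 had both PND10 pools above PND7 and 1 had both below, with a median log2 fold change of 0.45. Mei1, Ccdc36, Prdm9, Dmc1, Meiob and Msh4 passed the fit of 4 pools and none passed as lower, and DESeq2 on 6 pools called 4 higher. Prdm9 reached 18.9 and 28.9 CPM at PND10, against 6.19 and 4.68 CPM at PND7 and 72.9 and 29.1 CPM at PND12. Prdm9 (GENCODE M21 on mm10, chr17:15543079-15564354, minus strand), the histone methyltransferase that places recombination hotspots, differed by 2.09 ± 0.47 on the log2 scale (adjusted p = 0.00739). For Meiob the levels were 9.18 and 10.1 CPM at PND7, 16.9 and 58.5 CPM at PND10 and 100.3 and 131.1 CPM at PND12. Meiob, a single-strand DNA-binding protein of recombination, differed by 1.91 ± 0.55 (adjusted p = 0.0405), and its R2 pool at PND10 was well above R1. Mei1 was at 36.5 and 50.2 CPM at PND10, 15.1 and 14.7 CPM at PND7 and 58.8 and 22.1 CPM at PND12. Mei1, needed for break formation, differed by 1.50 ± 0.44 (adjusted p = 0.00624). Dmc1, the meiotic recombinase, was at 43.3 and 47.5 CPM at PND7 and 61.2 and 86.9 CPM at PND10 (log2 difference 0.66 ± 0.29, adjusted p = 0.0441). Spo11, which cuts the DNA, was at 5.14 and 6.58 CPM at PND7 and 4.32 and 14.7 CPM at PND10 and passed no fit of PND10 against PND7.

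Of 8 cohesin and axis genes, 4 had both PND10 pools above PND7 and 1 had both below, and 1, Hormad1, passed as higher. Hormad1 stood at 107.7 and 116.6 CPM in the PND7 pools, 156 and 208 CPM at PND10 and 293 and 365 CPM at PND12. Hormad1, a HORMA-domain protein of the unsynapsed axis, differed by 0.66 ± 0.20 (adjusted p = 0.0241). The first library of R2 of PND12 held 131.25 CPM of Hormad1, below both PND10 pools. Of 6 genes of the central part of the synaptonemal complex 1 passed, Syce3, at 115.8 and 100.5 CPM at PND7 and 159 and 216 CPM at PND10 (log2 difference 0.75 ± 0.17, adjusted p = 0.0182). Sycp3, an axis protein, was at 35.2 and 41.5 CPM at PND7 and 38.4 and 57.7 CPM at PND10, so the pools of the ages overlapped, and its log2 difference of 0.28 ± 0.34 did not pass (adjusted p = 0.433). Against PND8 the log2 differences of Meioc, Majin, Terb1, Prdm9, Meiob, Hormad1 and Syce3 kept their sign, at 0.80, 0.62, 0.98, 0.36, 0.89, 0.34 and 0.34, and none passed (adjusted p from 0.364 to 0.752). Among cells low in Sertoli RNA none of the 11 genes of these lists that passed did so (adjusted p from 0.0635 for Prdm9 to 0.503 for Ccdc36). All 11 log2 differences there were above 0, from 0.58 for Ccdc36 to 3.01 for Prdm9.

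The largest differences in the fit of PND7 and PND10 alone were chosen after the values were seen, since the designed fit called no gene. The 10 largest rises were Prss50, Ly6k, Esx1, Tbx1, Gm21917, Pcsk1n, H2-K1, Meig1, Meioc and Dll3. Pools of PND10 held 86.3 and 188 CPM of Prss50, against 16.6 and 8.38 CPM at PND7 and 267 and 159.7 CPM at PND12. Prss50 (GENCODE M21 on mm10, chr9:110857967-110864629, plus strand), a testis serine protease gene, had a log2 difference of 3.41 ± 0.49 from PND7 (adjusted p = 0.00497, and 8.43e-10 by DESeq2 on 6 pools). For Ly6k the levels were 24.05 and 19.8 CPM at PND7, 75.1 and 206 CPM at PND10 and 256 and 394 CPM at PND12. Ly6k (GENCODE M21 on mm10, chr15:74796874-74799986, minus strand), a GPI-anchored sperm maturation factor, differed by 2.63 ± 0.49 (adjusted p = 0.00904). Tbx1 was at 83.3 and 89.6 CPM at PND10, 21.6 and 13.1 CPM at PND7 and 33.1 and 35.5 CPM at PND12. Tbx1 (GENCODE M21 on mm10, chr16:18580979-18590671, minus strand), a T-box factor, differed by 2.28 ± 0.29 (adjusted p = 0.00262), and both PND10 pools were above all 4 others. Pcsk1n stood at 52.7 and 55.2 CPM in the PND7 pools, 183 and 221 CPM at PND10 and 157 and 109.4 CPM at PND12. Pcsk1n, an inhibitor of a prohormone convertase, differed by 1.87 ± 0.18 with a small spread between pools (adjusted p = 0.00106). Dll3 reached 49.3 and 56.4 CPM at PND10, against 20.9 and 12.9 CPM at PND7 and 31.3 and 88.4 CPM at PND12. Dll3, a Notch pathway ligand, differed by 1.61 ± 0.54 (adjusted p = 0.00844). In the cells low in Sertoli RNA, Prss50, Esx1, Tbx1, Gm21917 and Pcsk1n passed, at log2 differences of 3.89, 2.50, 3.08, 3.69 and 1.82 (adjusted p from 0.00234 to 0.0193). Against PND8, Prss50, Ly6k, Tbx1 and Pcsk1n differed by 1.34, 1.31, 0.58 and 0.63 with no adjusted p under 0.319, and Meig1 changed sign (-0.62).

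The 10 largest falls of that fit were Olfr1369-ps1, Bc1, Large2, Gsta3, Ifitm2, H2afy2, Tcl1, Akap5, Nanos3 and Ptgr1. For Bc1 the levels were 183 and 182 CPM at PND7, 48.9 and 34.7 CPM at PND10 and 56.5 and 42.02 CPM at PND12. Bc1, a small non-coding RNA that represses translation, had a log2 difference of -2.16 ± 0.24 (adjusted p = 0.00169). The PND8 pools held 54.5 and 62.4 CPM of Bc1, near those of PND10. Libraries of a pool lay far apart, with 285 and 76.4 CPM in R2 of PND7 and 67.4 and 10.2 CPM in R2 of PND10, and the difference from PND8 was -0.48 (adjusted p = 0.485). Olfr1369-ps1, a pseudogene of an olfactory receptor, was at 67.9 and 61.4 CPM at PND7, 4.19 and 6.99 at PND8 and 8.25 and 11.9 at PND10, so its log2 difference from PND7 (-2.72 ± 0.44) changed sign against PND8 (0.84). Akap5, an anchoring protein of protein kinase A, was at 129.9 and 136.8 CPM at PND7, 50.4 and 60.4 at PND8 and 46.7 and 40.2 at PND10. The R2 libraries of PND7 held 226 and 44.1 CPM of Akap5, the latter at the level of the PND10 pools. In these 3 genes the PND8 pools stood with PND10 and not with PND7. Large2, a glycosyltransferase gene, had PND8 pools between the other ages, at 161 and 138.8 CPM at PND7, 89.2 and 59.05 CPM at PND8 and 44.9 and 31.4 CPM at PND10.

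Promoters are printed for a pair of genes with large differences from PND7 that held the letters CNCCTCAG, the motif bound by STRA8 and MEIOSIN. The pair, Prdm9 and Prss50, shows where the letters stood. It does not stand for the genes higher at PND10, of which 14.61% held them, and Prdm9 was not among the 10 largest rises. The sequences are the 250 bases before the gene start in RefSeq's annotation of GRCm38.p6 (of the starts listed, the one that is also the GENCODE start), 5′ to 3′ in the direction of the gene, with CNCCTCAG or its reverse complement and CAGCTG in capitals. The Prdm9 stretch lies on the minus strand at chr17:15564355-15564604 and the Prss50 stretch on the plus strand at chr9:110857717-110857966.
Prdm9: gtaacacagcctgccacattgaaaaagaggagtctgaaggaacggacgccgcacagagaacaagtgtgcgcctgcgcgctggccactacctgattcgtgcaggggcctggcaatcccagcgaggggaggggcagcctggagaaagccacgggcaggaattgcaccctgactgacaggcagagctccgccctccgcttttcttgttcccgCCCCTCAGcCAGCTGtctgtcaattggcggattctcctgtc
Prss50: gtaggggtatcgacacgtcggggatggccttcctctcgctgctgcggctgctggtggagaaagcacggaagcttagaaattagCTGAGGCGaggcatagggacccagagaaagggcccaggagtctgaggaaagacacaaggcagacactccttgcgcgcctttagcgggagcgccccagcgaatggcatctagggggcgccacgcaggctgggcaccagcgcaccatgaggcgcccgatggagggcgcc
In Prdm9 the match CCCCTCAG began at position -41 from the start, followed by CAGCTG, and a further match, CTCCTCAG, began at position 14, while its other listed start had no match. In Prss50 the match was on the other strand (CTGAGGCG) at position -167. Of the 19578 genes in the fit 14054 had a promoter in the table, taken from 250 bases before to 50 after the start. CNCCTCAG on either strand was present in 10.98% of these, in 71 of 486 genes higher at PND10 in the fit of 4 pools (14.61%), in 58 of 613 lower genes (9.46%) and in 7.94% of all 32851 promoters of the table. CAGCTG, which reads the same on both strands and can overlap the end of CNCCTCAG, was present in 18.59%, 18.93%, 17.29% and 16.3%. A gene counted when any of its listed starts had a match. The last share of each series counts single promoters and is not on the same scale. A match of letters is not a bound site.

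Among X-linked and trophoblast genes some passed as higher and others as lower. Of 11 X-linked spermatogonial genes 7 had both PND10 pools above PND7 and 2 had both below, and Esx1 and Rhox13 passed as higher and Rhox10 as lower. Rhox10 was at 92.5 and 95.2 CPM at PND10, 166 and 157 CPM at PND7 and 106.7 and 69.04 CPM at PND12. Rhox10, a homeobox gene active in early spermatogonia, differed by -0.82 ± 0.19 on the log2 scale (adjusted p = 0.00549), opposite to Rhox13 of the same cluster. At PND8 it stood at 137.7 and 126.7 CPM, and PND10 differed by -0.50 (adjusted p = 0.319). Of 15 factors known from trophoblast 13 were tested, and Ascl2 and Esx1 passed as higher and Phlda2 as lower. Of the 13, 4 had both PND10 pools above and 4 below PND7, near the 30.4% and 24.4% of all genes. Phlda2, an imprinted growth regulator of the placenta, was at 86.95 and 63.1 CPM at PND7 and 48.1 and 35.5 CPM at PND10 (log2 difference -0.87 ± 0.28, adjusted p = 0.0348), with 51.9 and 48.3 CPM at PND8 (adjusted p = 0.746 for PND10 against PND8). Of 12 Wnt target genes 1, Ascl2 itself, passed. Ccnd1, a cyclin D gene of that list, was at 126.2 and 115.3 CPM at PND7, 203 and 158 CPM at PND10 and 110.1 and 50.7 CPM at PND12.

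Of 15 replication genes 8 had both PND10 pools above PND7 and 2 below, and Ccne2, Gins2 and Cdc6 passed as higher. Ccne2 stood at 35.6 and 30.9 CPM in the PND7 pools, 80.4 and 75.1 CPM at PND10 and 86.4 and 67.2 CPM at PND12. Ccne2, cyclin E2, differed by 1.19 ± 0.19 (adjusted p = 0.0054, and 1.01e-06 by DESeq2 on 6 pools). Gins2, a subunit of the replicative helicase, was at 23.6 and 23.7 CPM at PND7 and 46.3 and 57.8 CPM at PND10 (log2 difference 1.10 ± 0.21, adjusted p = 0.00926). At PND8 Ccne2 stood at 39.5 and 43.8 CPM and Gins2 at 32.4 and 35.6 CPM, and PND10 differed by 0.90 and 0.61 on the log2 scale without passing (adjusted p = 0.142 and 0.36). A sort of PND7 cells by DNA content, as the field 2N names it, cannot be told apart from age in these genes. Of 15 mitosis genes none passed as higher or lower (edgeR, fit of 4 pools), none had an unadjusted p under 0.05 in the designed fit, and DESeq2 on 6 pools called none. Mki67, a proliferation marker, was at 120.01 and 141.2 CPM at PND7 and 143.8 and 134.6 CPM at PND10. Of 15 genes of DNA methylation and the piRNA pathway 1 passed in each direction, Tdrd9 as higher (55.3 and 52.1 CPM at PND7 and 73.5 and 80.4 CPM at PND10) and Asz1 as lower (246 and 261 CPM at PND7 and 177 and 183 CPM at PND10). At PND8 they stood at 74.4 and 72.2 CPM and 217 and 205 CPM, and neither differed from PND10 past the test (adjusted p = 0.938 and 0.537). Dnmt3b, a de novo methyltransferase, was at 115.9 and 136.7 CPM at PND7, 154 and 198 at PND8, 179 and 153 at PND10 and 108.3 and 79.7 at PND12.

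Genes of other cell types were read in the same pools. The 12 Sertoli genes tested summed to 809.7 and 857 CPM at PND7 and 686 and 689.5 CPM at PND10, 8 of them had both PND10 pools below PND7, and Amh, Clu and Gstm6 passed as lower in the fit of 4 pools. Amh, the defining hormone of immature Sertoli cells, was low (6.67 and 7.08 CPM at PND7 and 2.08 and 1.81 CPM at PND10), while Clu was at 131.1 and 132.997 CPM at PND7 and 90.7 and 107.2 CPM at PND10 and Defb19 at 84.9 and 94.2 CPM at PND7 and 83.4 and 112.2 CPM at PND10. The R2 libraries of PND7 held 218 and 44.8 CPM of Clu and 12.4 and 1.63 CPM of Amh, the second below both PND10 pools in both genes. At PND8 the Sertoli list summed to 463 and 253 CPM, so it was lower there than at both other ages. The 14 interstitial and peritubular genes summed to 188 and 216 CPM at PND7 and 219 and 247 CPM at PND10, the 9 macrophage genes to 99.2 and 21.5 CPM at PND7 and 80.9 and 17.3 CPM at PND10, and the 8 endothelial genes to 100.7 and 96.8 CPM at PND7 and 92.5 and 119.5 CPM at PND10, and no member of these 3 lists passed edgeR on 4 pools or DESeq2 on 6, while 1 endothelial gene had an unadjusted p under 0.05 in the designed fit. The 6 erythroid genes tested summed to 92.1 and 38.9 CPM at PND7 and 17.98 and 24.7 CPM at PND10, and Hba-a1, Hba-a2 and Hbb-y passed as lower. The Hbb-y signal at PND7 lay in 1 library of each replicate. The 12 late germ cell genes summed to 85.8 and 86.1 CPM at PND7 and 132.2 and 171 CPM at PND10, where Ldhc and Hspa2 passed as higher. At PND8 the sum was 171 and 359 CPM, and Ldhc, at 52.7 and 106.3 CPM there against 22.8 and 28.2 CPM at PND10, had the other sign against PND8 (-1.64 on the log2 scale, adjusted p = 0.195). Hspa2 was at 46.5 and 69.1 CPM at PND8 and 63.9 and 92.6 CPM at PND10. The part of this RNA in the other differences was not tested, and the fits without those cells also rested on fewer cells.

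From PND10 to PND12 the designed fit called no gene, and the values are given as levels. Both PND12 pools lay above both PND10 pools in 16.4% and below in 24% of all genes tested. Of the 14 differentiation genes 8 had both PND12 pools below PND10 and 1 above, with a median log2 fold change of -0.44 against 0.04 over all genes. DESeq2 called 4 of the 14 lower and 1 higher, against 440 lower and 841 higher among all 19575 genes. Dmrt1, which holds back Stra8 in spermatogonia, was at 419.7 and 314 CPM at PND10 and 250.1 and 172 CPM at PND12 (log2 difference -0.78 ± 0.21, DESeq2 adjusted p = 0.0414). Of the 15 mitosis genes 9 had both PND12 pools below PND10, none had both above, the median was -0.50, and DESeq2 called 4 lower. Plk1, a mitotic kinase, was at 197 and 172 CPM at PND10 and 100.2 and 79.8 CPM at PND12 (log2 difference -1.01 ± 0.16, DESeq2 adjusted p = 4.81e-05). Ccnb1, cyclin B1, was at 469.7 and 385 CPM at PND10 and 268 and 247 CPM at PND12, and Ccna2, cyclin A2, at 284 and 244 CPM at PND10 and 170.3 and 105.2 CPM at PND12. Of the 8 cohesin and axis genes 5 had both PND12 pools above PND10, none below, and DESeq2 called 4 higher. Sycp2, an axis protein, was at 93.6 and 132.9 CPM at PND10 and 234 and 302 CPM at PND12 (log2 difference 1.29 ± 0.23, DESeq2 adjusted p = 3.51e-04). Stag3, a meiotic cohesin subunit, was at 93.03 and 100.9 CPM at PND10 and 132.8 and 181 CPM at PND12, and Hsf2bp, which acts with BRCA2, at 57.9 and 72.1 CPM at PND10 and 129.3 and 169 CPM at PND12. In R2 of PND12 the libraries held 86.4, 369 and 334 CPM of Sycp2 and 85.3, 193 and 220 CPM of Stag3. The first of these libraries was below both PND10 pools in both genes, and above them in Hsf2bp, at 80.8 CPM. Late germ cell genes were at 22.8 and 28.2 CPM at PND10 and 28.5 and 641 CPM at PND12 for Ldhc and 0.550 and 0.825 CPM at PND10 and 2.91 and 113.8 CPM at PND12 for Acr, so that R2 of PND12 was high. Within R2 the 3 libraries held 26.8, 835 and 735 CPM of Ldhc and 0.218, 126.99 and 159.9 CPM of Acr, and the first of them was near R1.

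The highest levels at PND10 among the 3 ages were chosen after the values were seen and carry no test. Both PND10 pools lay above all 4 PND7 and PND12 pools in 10.3% of genes and below all 4 in 5.37%. The largest differences among the former were in Gm21917, Tbx1, Tcea3 and Plin1. Gm21917, a predicted gene, was at 16.98 and 20.7 CPM at PND7, 73.4 and 103.4 CPM at PND10 and 34.1 and 12.1 CPM at PND12, and PND8 held 27.5 and 20.8 CPM. Unc13d, a gene of vesicle release and also of this group, was at 31.5 and 41.6 CPM at PND7, 73.1 and 54.1 CPM at PND10 and 28.3 and 10.002 CPM at PND12. Plin1, a lipid droplet protein gene, was at 59.9 and 47.7 CPM at PND7, 93.6 and 72.02 CPM at PND10 and 19.7 and 5.28 CPM at PND12. Of the 14 differentiation genes 5 were in this group, and of the 16 stem genes 6 were in the opposite one. Large2 and Nanos3 were lowest at PND10 of the 3 ages.

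Single cells of PND10 spread widely within both replicates. Each cell was thinned to 50000 UMIs, which left out 6 cells of R1 and 5 of R2, and was counted as holding a gene with 2 UMIs or more. Esx1 was held by 73.7% of 167 cells of R1 (95% Clopper-Pearson interval 66.3 to 80.2%) and 79.9% of 149 cells of R2 (72.5 to 85.98%). At PND7 the shares were 33.3% and 17.9%, and 33.3% of the 15 PND10 somatic cells (11.8 to 61.6%) also held it. The median PND10 Esx1 level per cell was 68.03 and 79.4 CPM, with the 10th to 90th percentile from 25.7 to 306 and from 25.9 to 332 CPM. Ascl2 was held by 78.4% and 65.8% of the PND10 cells, by 65.3% and 70.9% at PND7, by 35.4% and 34.8% at PND12, and by 6.67% of the PND10 somatic cells. Kit was held by 80.8% and 69.1% at PND10, 51.4% and 51.7% at PND7, 45.8% and 41.6% at PND12, and 6.67% of the somatic cells. Nanos3 was held by 34.7% and 37.6% at PND10 against 88.9% and 69.5% at PND7, and Gfra1 by 4.79% and 1.34% against 14.6% and 13.2%. Unthinned cells gave 73.4% and 83.8% for Esx1 and 77.5% and 65.6% for Ascl2 at PND10. Shares were compared without a test, since an exact two-sided permutation test of 2 pools against 2 cannot go below a p of 0.333, and intervals cover counting error only.

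Stra8 was held by 100% and 98.7% of the PND10 germ cells, but also by 100% of the 15 somatic cells (78.2 to 100%), so that a share of cells says nothing on its expression here. The median depth was 276376 and 337678 UMIs in the germ cells and 127975 in the somatic cells, and the pooled somatic level of 108.4 CPM stands beside 498 and 538 CPM. By level, 94.8% of the 173 cells of R1 and 90.3% of the 154 of R2 had at least 100 CPM of Stra8, as had 9 of the 15 somatic cells, and 21 PND10 cells lay between 80 and 120 CPM. Only 1 cell, in R1, had under 100 CPM of Stra8 with at least 50 CPM of Gfra1, and 8 and 15 cells were under both limits. At PND7 253 of 307 cells (82.4%) had at least 100 CPM of Stra8 and 10 had the Gfra1 pattern.

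The PND10 cells under both limits differed between the replicates. The 15 in R2 held 303 CPM of Meiob, 221 CPM of Sycp3 and 209 CPM of Meioc when pooled, with 7.83 CPM of Kit and a median of 126860 UMIs. The 8 in R1 held 14.2 CPM of Meiob, 14.2 CPM of Sycp3, 39.2 CPM of Kit and 100.2 CPM of Etv5. The cells with at least 100 CPM of Stra8 held 16.9 and 47.6 CPM of Meiob in R1 and R2. Cells with at least 100 CPM of Meiob numbered 0 and 0 at PND7, 5 of 173 (2.89%) and 27 of 154 (17.5%) at PND10, and 20 of 54 (37.04%) and 69 of 182 (37.9%) at PND12. For Meioc the PND10 shares were 10.4% and 27.3%, for Prdm9 4.62% and 9.09%, and for Prss50 20.8% and 51.9%. In each of these 4 genes the PND10 R2 share was above that of R1.

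**Figure D4:**
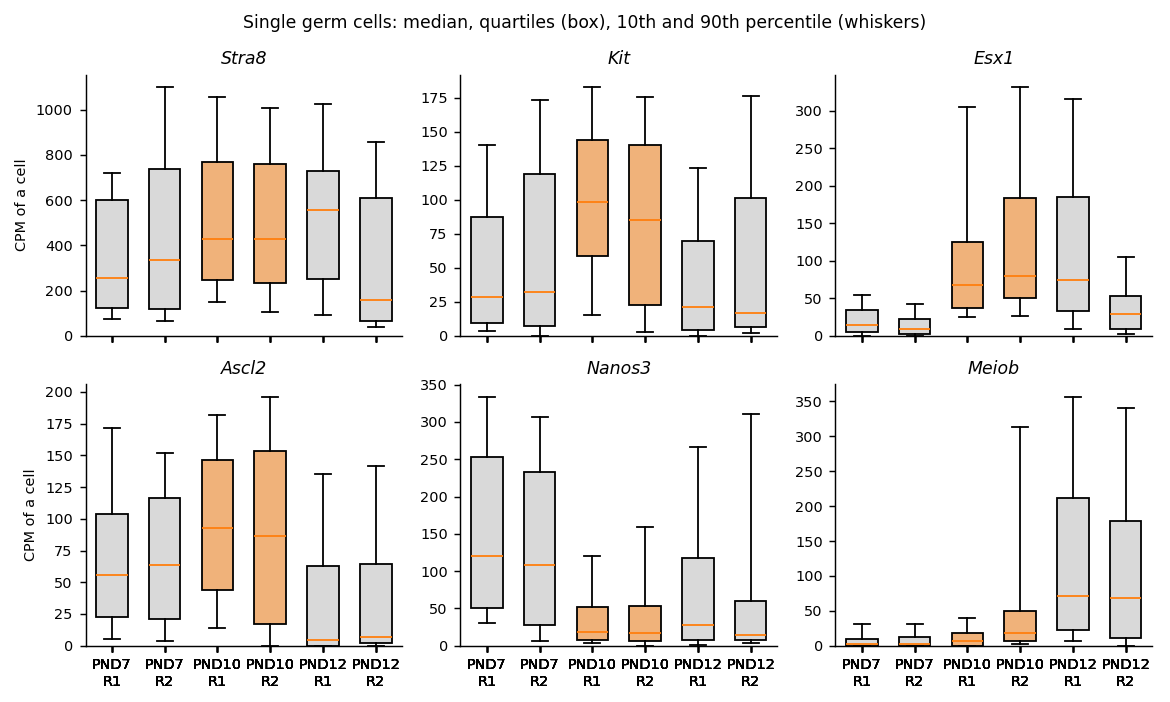
Boxes show the CPM of single germ cells (median, quartiles, whiskers at the 10th and 90th percentile; vertical axis from 0) for 6 genes in each pool of PND7, PND10 (orange) and PND12. Esx1 and Kit medians are higher in both PND10 pools than in both PND7 pools, Nanos3 medians are lower, and Meiob reaches a 90th percentile of 313 CPM in the R2 pool of PND10.

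Among PND10 cells some of these genes varied together. Over the 173 cells of R1 and the 154 of R2 Spearman's rho of Esx1 with Rhox13 was 0.65 and 0.68, and of Esx1 with Prss50 0.55 and 0.51. Stra8 with Kit gave 0.27 and 0.44, and Stra8 with Esx1 gave -0.18 and -0.15. Esx1 with Ascl2 gave -0.07 and -0.14. These describe cells of 1 pool that share libraries and differ in depth, and they carry no p.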

How the data were processed

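The authors sequenced single cells by modified STRT-seq with cell barcodes and unique molecular identifiers (UMIs) and deposited UMI counts per gene and cell, not normalized. Per the labels the reads went through CASAVA 1.8, UMI-tools, STAR and featureCounts (Subread) on mm10. The labels of the libraries give no age, so time-point and replicate (R1, R2) came from the deposited cell names, and 10680 columns of other cells were not used. UMIs were summed over gated cells per time-point and replicate, and 6 pools were tested with edgeR 4.0.16 (TMM, filterByExpr, quasi-likelihood test, Benjamini-Hochberg, FDR 0.05) in R 4.3.3. Ddx4, Sox9 and Nr2f2 were left out of the calls, since the gate used them. DESeq2 1.42.0 was the alternative tool, and the script was tested on simulated data. P-values weigh the difference between ages against the spread between pools. Each pool is 1 testicular sample in its own libraries, so that animal and technical spread cannot be told apart. UMIs are counted at 3′ ends, so levels of different genes were not compared.

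Members, gene lists and tests were chosen with earlier results of these data known. Genes named are list members and, per comparison, the 10 largest rises and falls past FDR 0.05, provided the pools of both ages stayed apart and the log2 CPM averaged 5 or more. Since the designed fit called none, the latter were taken from the fit of PND7 and PND10 alone, and for PND10 peaks by size without a test. Replicate numbers did not pair the pools (correlations of deviations 0.05, 0.02 and 0.09). Strand use in counting was not given in the sources used here, so overlapping genes may share UMIs, as may near-identical copies such as Hba-a1 and Hba-a2. Figures were drawn with matplotlib 3.10.9.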

Additional observations from a re-analysis of the deposited data

How the results depend on the processing

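For PND10 against PND7 the designed fit gave 0 calls. DESeq2 gave 445, no filter on low counts 13, and the PND7 and PND10 pools alone 1461. Leaving out 1 pool gave 0 to 1612 calls, with 1385 without R1 of PND12, 1612 without R2 of PND12 and 0 without any PND7 or PND10 pool. For PND12 against PND10 DESeq2 gave 1281 and no filter gave 1. Leaving out 1 pool gave 0 to 5555, with 5555 without R1 and 1561 without R2 of PND12. For PND10 against the mean of both, DESeq2 gave 261, and leaving out 1 pool gave 0 to 2512, with 2512 without R1 and 1230 without R2 of PND12. The cause of the differing counts was not tested. DESeq2's size factors in edgeR, Ddx4 limits of 50 and 300 CPM, no limit on Sox9 and Nr2f2, equal weight of cells, and PND8 and PND14 added to the fit gave 0 calls in each comparison run.

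With the replicate number as a block the 6 pools gave 0 calls in all 3 comparisons, and the numbers were not found to pair the pools. With PND7 and PND10 alone the replicate block gave 2189 calls.

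The following were chosen after seeing the data. Cells with Piwil1 and Ldhc under 100 CPM gave 1 call for PND10 against PND7 and 4 for PND12 against PND10. Cells with the 4 Sertoli genes under 100 CPM gave 183 for PND10 against PND7, and could not be run against PND12, where R1 had 0 such cells. With PND7 and PND10 alone these cell limits gave 1735 and 31, DESeq2's size factors in edgeR 1464, DESeq2 2622, and leaving out 1 pool 676 to 4214, with 676 and 681 without R1 and R2 of PND7 and 4214 and 2336 without R1 and R2 of PND10. PND8 in the place of PND7 gave 0 calls in the fit of 5 time-points and 1 with PND8 and PND10 alone. Of 3257 values of named genes under alternatives 33 had another sign than in the designed fit, all uncalled. Against PND8 10 of 79 had the other sign in each fit. No value changed sign past the threshold, but this needed a call in the alternative, since the designed fit called no gene. Settings with few or 0 calls could therefore hardly show such a change.

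Counting a cell from 1 UMI in place of 2 moved the PND10 shares of Esx1 to 87.4% and 93.3% and of Ascl2 to 86.8% and 79.2%. Fits without 1 PND12 pool tested that age with a single pool, and their calls are not read as changes at PND12.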
